A study of Mus musculus with 24 samples.

Results

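The comparison described here set the bone marrow of oil-treated Cyp1a1-null mice (3 arrays) against that of oil-treated wild-type (WT) mice (3 arrays), which together are 6 of the 24 arrays of the series. The 6 arrays were assigned to their groups by their labels, and of the WT arrays replicates 2 and 3 served as the control. WT oil replicate 1 is given beside the results and was kept out of the fit because its reference channel deviated: the standard deviation of its log ratios over genes was 1.10, against 0.224 and 0.381 for the other WT oil arrays. The comparison therefore rested on 5 arrays, 3 null and 2 WT.

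All mice were female C57BL/6j aged 6 weeks, and both groups received an injection of olive oil into the peritoneum and no other agent. The null mice lacked Cyp1a1 in every cell, and the part of the gene that was removed and the origin of the line are not given in the sources used here. Each labelled sample was a pool of 9, without a statement of what the 9 were. The p-values therefore measure the spread between arrays within groups, which may be technical in part. That spread and the standard errors were pooled over all groups of the fit, treated groups included. With only the arrays of the groups compared, 236 genes were called instead of 1835. Total RNA was labelled with Cy3 and hybridised on a 2-colour Agilent array together with a Cy5-labelled pool of marrow from oil-treated WT mice, with no dye swap. A value below is the log2 ratio of Cy3 to Cy5 after background correction and normalization within the array, so that 0 is the level of the WT pool, and a change is the mean of the null arrays minus the mean of the WT arrays, on the log2 scale, with its standard error (SE). For reference there were Cyp1b1-null mice given oil (2 arrays) or 7,12-dimethylbenz[a]anthracene (DMBA) for 12 hours (2 arrays), and mice lacking both genes (double-null) given oil (1 array) or benzo[a]pyrene for 12 hours (2 arrays). Cyp1a1-null mice had also been given benzo[a]pyrene for 12 hours (3 arrays), and WT mice benzo[a]pyrene for 6 hours (2 arrays), DMBA for 12 hours (3 arrays) or the dioxin TCDD for 12 hours (3 arrays). The 14 arrays of mice carrying Cyp1a1 used below are the WT arrays without oil replicate 1 and the Cyp1b1-null arrays, and the 9 lacking it are the Cyp1a1-null and double-null arrays; most of them were treated, and agents and times differ between the sets.

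Cytochrome P450 1A1 (CYP1A1) is a monooxygenase that oxidises polycyclic aromatic hydrocarbons such as benzo[a]pyrene and also endogenous ligands of the aryl hydrocarbon receptor (AhR). The AhR, once bound by a ligand, pairs with ARNT and drives Cyp1a1 from xenobiotic response elements, and CYP1A1 in turn clears ligands, which closes a feedback loop. In marrow without an inducer the enzyme is scarce, and its relative CYP1B1 is the form best known from stromal cells. The comparison asks, as the series design lists it, how the oil control of the null strain stands against the oil control of WT mice.

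The arrays of both groups differed in how they were made, and this touches every result. The null arrays lay together on 1 slide, were scanned in 1 pass and were read with Feature Extraction 10.7.3.1, whereas WT oil replicates 2 and 3 lay on separate slides, were scanned in 2 passes and were read with version 9.1.3.1. The scanner's ceiling was met by 583 to 633 spots of the reference channel on the null arrays, against 39 and 70 on the WT arrays. A gene is called "at the ceiling" here when its Cy5 spot carried the saturation flag or either mean signal reached 65000. Cy3 was well above background for 75.9% to 83.1% of gene probes on the null arrays and for 85.0% and 46.3% on the WT arrays. The log ratios of the null arrays correlated with each other at r = 0.621 to 0.826 across genes, and at r = 0.677 to 0.838 with the third Cyp1a1-null benzo[a]pyrene array, which lay on the same slide.

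Of 24097 genes tested, 1835 were called at an adjusted p under 0.05 (7.62%), 782 higher in null marrow (3.25%) and 1053 lower (4.37%). All 3 null arrays lay above both WT arrays for 780 of the 782 genes and below both for 1044 of the 1053. The genes were called from the same arrays, so this separation is no independent check of the calls. Among all 24097 genes tested, the null arrays all lay above both WT arrays for 4608 and below both for 4177. The median change of all genes tested was 0.03. The heat shock genes Hspa1a and Hspa1b, integrated stress response genes, Tnf and Lpl were among the higher genes. Osteopontin, eosinophil granule genes and dendritic cell genes were among the lower ones, and the AhR target battery had 1 call. The largest changes of all genes tested were falls of 2 transcripts whose probes lie on chromosome 9, the chromosome of Cyp1a1.

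Genes at the ceiling made up a separate class. Of the 457 genes at the ceiling on all 3 null arrays, 230 were called (50.3%), 221 higher (48.4%) and 9 lower (1.97%), whereas of the 23598 genes at the ceiling on none of them, 1601 were called (6.78%), 561 higher (2.38%) and 1040 lower (4.41%). With slide as a random block in the same fit (consensus correlation 0.568), 46 of the 1835 calls were left. The 32 higher ones were all at the ceiling on all 3 null arrays, and the 14 lower ones were all off it. Apart from these 46, every call of this comparison named below was lost under that block, and slide and genotype cannot be told apart. The part of scanner ceiling, scan passes and software in the differences was not tested beyond these counts.

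Single arrays also decided many calls. Of 95 called genes named here, 30 kept their call whichever of the 5 arrays was left out; 61 lost it without WT oil replicate 3, 40 without null replicate 3, 35 without null replicate 2, 25 without WT oil replicate 2 and 13 without null replicate 1. Without WT oil replicate 3 the changes moved to 0.88 for Chac1, 0.47 for Aars, -0.64 for Teddm2, -0.69 for Tcf12, -0.44 for Ogt, -0.49 for Dlat, -0.59 for Ndufs8 and -0.18 for Ube2c. Without WT oil replicate 2 they were -1.91 for Ogt and -0.75 for Ube2c, without null replicate 3 -0.72 for Fgfbp3, and without null replicate 1 -0.74 for Teddm2. A further probe above background on all 5 arrays existed for 29 of the genes named, and for 10 of them such a probe had the opposite sign; these are given with the genes.

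Cyp1a1 itself checked the labels only in part. Its probe was not well above background on any of the 9 arrays lacking the gene, nor on either WT oil array of the comparison. The log ratios were -0.20, -0.13 and -0.13 on the null arrays and -0.11 and 0.48 on the WT arrays, and no change is given because neither group was measured above background. In treated WT marrow the probe read 1.71 and 1.94 after benzo[a]pyrene for 6 hours and 1.93, 1.76 and 1.91 after DMBA for 12 hours, but only 1 of the 3 arrays given TCDD was high, at 1.55 against 0.18 and 0.15. On the Cyp1a1-null benzo[a]pyrene arrays, taken at 12 hours, it read -0.07, 0.00 and 0.11, so these differ from the WT benzo[a]pyrene arrays in time as well as genotype. The authors' deposited table gives -2.64 (log2) for this probe in the oil comparison. Cyp1a1 lies at chr9:57687928-57703824 (GRCm38.p6), and whether the probe falls within the deleted part is not known here.

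The AhR battery, 16 tested genes that the receptor drives or that make up its own machinery, had 1 call, lower (6.25%, against 7.62% of all genes tested), with a median change of -0.32. Cyp1b1, which oxidises many of the same substrates, stood at -0.28, -0.02 and -0.21 on the null arrays and -0.04 and 0.57 on the WT arrays, and the groups overlapped (change -0.43 ± 0.208, adjusted p = 0.208). The Cyp1b1 probe was not low on the arrays labelled Cyp1b1-null oil, at 0.51 and 1.08, nor on the double-null oil array, at 1.57. Whether it lies in the deleted part is not known here, so it does not check those labels. Changes of the receptor Ahr (-0.29), its repressor Ahrr (-0.50), the ADP-ribosyltransferase Tiparp (-0.17), the quinone reductase Nqo1 (-0.04) and the hepatic monooxygenase Cyp1a2 (0.03) were not called, with adjusted p from 0.313 to 0.892. Nfe2l2, which encodes the oxidative stress regulator NRF2, was the called member, at -0.11, -0.53 and -0.37 on the null arrays and 0.15 and 0.38 on the WT arrays (change -0.60 ± 0.143, adjusted p = 0.0204, and 0.228 with slide as a random block). The NRF2 target list itself had 4 of 21 members higher and 1 lower (23.8%), of which 2 and 1 were off the ceiling. Osgin1, an oxidative stress growth inhibitor, was higher (change 1.13, adjusted p = 0.00483), and the peroxiredoxin Prdx1 was lower.

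The 2 largest falls were seen with probes on chromosome 9 on either side of Cyp1a1, whose own probe lies at chr9:57551535-57551594 in the mm9 coordinates of the array files. The transcript listed as ENSMUST00000050829, for which the files give no gene symbol, stood at -2.0, -2.19 and -2.48 on the null arrays and at 0.52 and 0.78 on the WT arrays. The change was -2.87 ± 0.226 (adjusted p = 5.84e-06, and 0.00306 with slide as a random block). The probe named for the non-coding transcript 4930520O04Rik stood at -3.91, -2.86 and -3.55 against 0.22 and 0.54, a change of -3.82 ± 0.305 (adjusted p = 5.84e-06, and 0.00289 with the block). Groups were wide apart for both, and Cy3 of the second was well above background on 2 of the 3 null arrays. Another probe for 4930520O04Rik, which does not overlap the first, gave -2.80, -1.90 and -2.33 against 0.28 and 0.30. The RefSeq annotation puts the gene of that name elsewhere, at chr9:114368324-114377238 (GRCm38.p6), and other probes under the name did not follow, so the name is uncertain and the probes are described by position. Both transcripts were singled out after their values were seen, as neither is covered by the rule for named genes. The unannotated cDNA 9830163H01Rik went the other way, at 1.27, 0.75 and 1.03 against -0.14 and 0.00 (change 1.08 ± 0.146, adjusted p = 0.00052, and 0.0785 with the block).

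The first 30 of the 60 bases of each of these probes are shown because the differences rest on these oligonucleotides; they are printed 5′ to 3′ as designed on the + strand, wholly in lower case since no part of them is marked out, and the coordinates (mm9) are those of the whole probe.
4930520O04Rik first probe, chr9:70398404-70398463: gagtttaaggaaaattgtaaaccttggtaa
4930520O04Rik second probe, chr9:70398321-70398380: gtatttcatagcaacgtttctgttgaaagg
ENSMUST00000050829, chr9:51088908-51088967: caaataactaggaggtttccaggaatgcag
9830163H01Rik, chr9:51885640-51885699: atagagacctttacctttatgatgacatgt

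These probes kept their direction in every group lacking Cyp1a1. ENSMUST00000050829 stood at -2.0, -2.51 and -2.37 in Cyp1a1-null marrow after benzo[a]pyrene, at -2.52 in double-null marrow after oil and at -2.46 and -2.48 in double-null marrow after benzo[a]pyrene. The 14 arrays of mice carrying the gene ran from -0.74 to 0.78, without overlap. Within 1 slide that held both kinds, the values were -2.0 and -2.51 on the arrays lacking Cyp1a1 and -0.74 and -0.47 on those of Cyp1b1-null mice given oil. For 9830163H01Rik the 9 arrays lacking Cyp1a1 ran from 0.73 to 1.27 and the 14 others from -0.15 to 0.36. For the first probe of 4930520O04Rik the ranges were -3.91 to -0.71 and -0.45 to 0.67, and the double-null benzo[a]pyrene arrays, at -0.71 and -0.83, were nearest to the carriers.

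**Figure D1:**
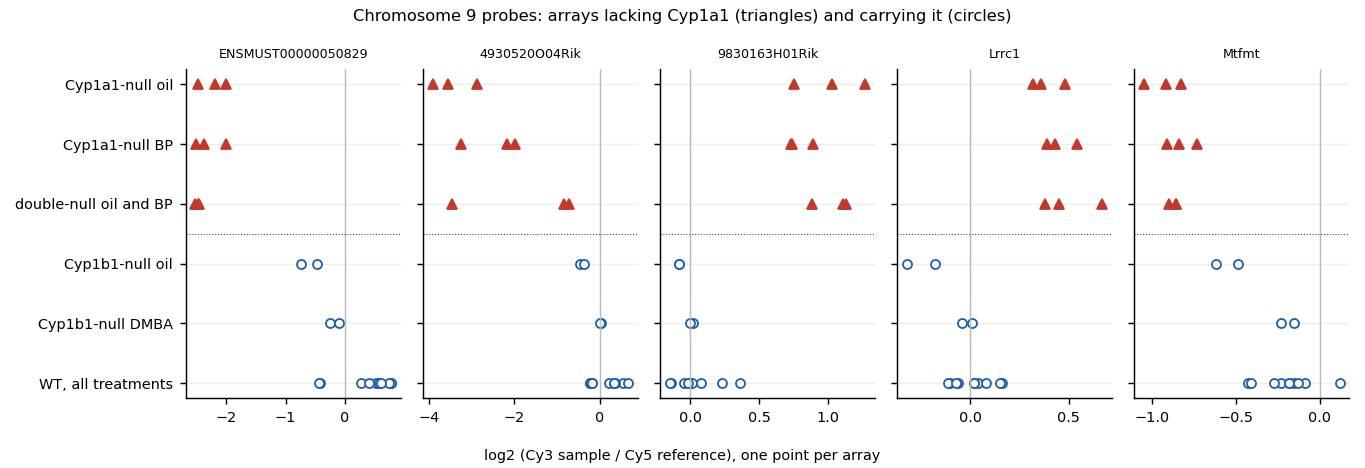
The log2 ratio of Cy3 sample to Cy5 reference (x axis, 1 point per array) is shown for 5 chromosome 9 genes in groups lacking Cyp1a1 (triangles) and carrying it (circles); BP is benzo[a]pyrene, DMBA is 7,12-dimethylbenz[a]anthracene, and WT oil replicate 1 is left out. In all 5 panels the 9 arrays lacking Cyp1a1 are separate from the 14 arrays carrying it.

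The probes within 25 Mb of Cyp1a1 were examined together after these values had been seen. Of 632 genes tested there, 32 were called higher and 48 lower (12.7%), against 7.50% of 707 genes farther away on chromosome 9 and 7.50% of 22503 genes on other chromosomes. The share reached 20.7% of 58 genes at 5 to 10 Mb before the Cyp1a1 probe and 24.4% of 45 genes at 10 to 15 Mb after it. Complete separation of the 9 arrays lacking Cyp1a1 from the 14 carrying it was found for 20 of all genes tested (0.083%), for 5 of the 632 within 25 Mb (0.791%), for none of the 707 farther along the chromosome and for 15 on other chromosomes (0.0667%). These shares are descriptions with no test, since neighbouring genes are not independent of each other. Besides the 3 transcripts above, the separated neighbours were Lrrc1, which encodes a scaffold protein (0.48, 0.36 and 0.32 against 0.04 and -0.10, adjusted p = 0.0185, and 0.234 with the slide block), and Mtfmt, the mitochondrial methionyl-tRNA formyltransferase (-0.92, -0.83 and -1.05 against -0.23 and -0.18, adjusted p = 0.00073, and 0.051 with the slide block). WT oil replicate 1, which is not among the 14, read 1.47 for Lrrc1, above every array lacking Cyp1a1 (highest 0.67). It read -1.04 for Mtfmt, within the range of the arrays lacking Cyp1a1 (-1.05 to -0.73). For ENSMUST00000050829, 4930520O04Rik and 9830163H01Rik it read 3.14, 1.04 and -0.13, on the side of the carriers.

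**Figure D2:**
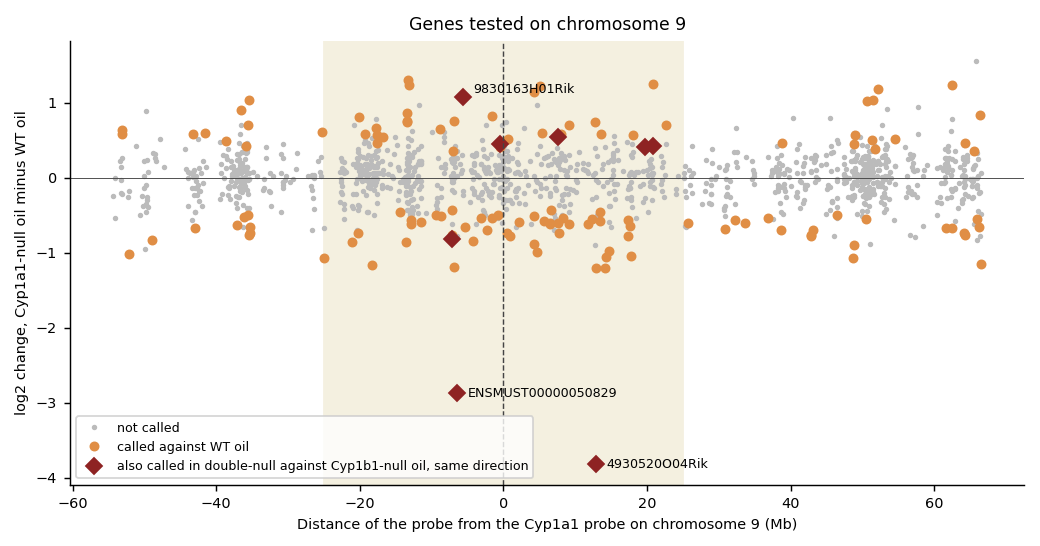
Each point is a gene on chromosome 9, with the distance of its probe from the Cyp1a1 probe in Mb (x axis) and its log2 change between Cyp1a1-null oil and WT oil (y axis); orange points were called, and red diamonds were also called in the same direction between double-null and Cyp1b1-null oil marrow. All 8 diamonds lie within the shaded 25 Mb on either side of Cyp1a1, and the 2 lowest points are ENSMUST00000050829 and 4930520O04Rik.

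In the nearest 2 Mb, where 62 genes were tested, 4 were higher and 3 lower (11.3%), with a median change of 0.09 and no change beyond -0.73 or 0.82. Pstpip1, an adaptor of the actin cytoskeleton in blood cells, was the largest rise, at 0.28, 0.96 and 0.76 against 0.02 and -0.32 (change 0.82 ± 0.165, adjusted p = 0.00891). Tbc1d21 (0.52), 1700017B05Rik (0.45) and 1700041C23Rik (0.41) were the other rises, the last with Cy3 above background on 1 array of each group. The falls were 1600029O15Rik (-0.73), the calcium-binding endoplasmic reticulum protein gene Rcn2 (-0.54) and Imp3 (-0.50), whose product processes ribosomal RNA. With slide as a random block the adjusted p of these 7 ran from 0.182 to 0.347. Mindy2, a deubiquitinase gene at chr9:70599014-70657856 (GRCm38.p6), and Tcf12, which encodes an E-protein transcription factor at chr9:71844252-72111893, lie farther out, at 10 to 15 Mb after Cyp1a1, and were among the largest falls (both -1.20). Other probes of Tcf12 gave -0.51, -1.18, 0.05 and 0.30.

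Loss of Cyp1a1 could also be read without any of these arrays, as double-null oil (1 array) minus Cyp1b1-null oil (2 arrays) in the same fit, a comparison added after the data were seen. It called 1520 genes (6.31%), 790 higher (3.28%) and 730 lower (3.03%). Over 24085 genes its changes correlated with those of the first comparison at r = -0.308 across genes, which are not independent replicates. Of the genes called in both, 217 went in opposite directions and 43 in the same direction, 28 higher and 15 lower, the 43 being 2.34% of the 1835 and 2.83% of the 1520. Of these, 8 lay within 25 Mb of Cyp1a1 (1.27% of the 632 tested there), 0 farther along chromosome 9 and 35 on other chromosomes (0.156%). The 8 were 4930520O04Rik (-3.05 in the second comparison), ENSMUST00000050829 (-1.92), 9830163H01Rik (0.96), Lrrc1 (0.92), Parp16 (1.10), the sialic acid transporter gene Slc17a5 (0.49), 1700017B05Rik (0.62) and Dlat (-0.88), a subunit of pyruvate dehydrogenase. The double-null oil array has no replicate, so its spread was taken from the other groups of the fit, the calls compare that single array with 2 others, and it lay on another slide than they did. The other probe of Dlat gave 0.23 in the first comparison.

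The difference between both readings was tested in the same fit. It was called for 2334 of 24085 genes (9.69%), and for 286 with slide as a random block, and it rests on the same single double-null array. It was not called for 4930520O04Rik (-0.77, adjusted p = 0.335), ENSMUST00000050829 (-0.96, 0.114), 9830163H01Rik (0.13, 0.772), Trib3 (-0.25, 0.794) or Hspa1a (1.95, 0.101). For these 5 the reading on WT and on Cyp1b1-null marrow did not differ by the test, which does not show that they were equal. It was called for Spp1 (-1.03, adjusted p = 0.0284) and the hypoxia target Ankrd37 (-1.30, 0.0338). Their changes on the Cyp1b1-null background were -0.47 and -0.40, and with the slide block the adjusted p of the difference was 0.290 and 0.286.

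The integrated stress response was the list off the ceiling with the most rises. This response is a shared output of kinases that sense amino acid shortage, unfolded protein, heme lack or viral RNA; they phosphorylate eIF2α, ATF4 is then translated, and ATF4 switches on genes of amino acid uptake, tRNA charging and serine metabolism. Of its 22 tested members 10 were called higher and none lower (45.5%, against 7.62% of all genes tested), 9 of the 10 off the ceiling, and the median change was 0.48. Of the 22, 18 had a change above 0, against 12922 of all 24097 genes tested. For 13 of the 22 all null arrays lay above both WT arrays, against 4608 of all 24097. With slide as a random block none of the 10 was called, with adjusted p from 0.0938 to 0.393. WT oil replicate 1 lay below every null array for 5 of the 10 and not for the rest.

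Trib3, a pseudokinase induced by ATF4 that feeds back on it, stood at 1.68, 1.97 and 2.06 on the null arrays and at 0.01 and 0.71 on the WT arrays, with WT oil replicate 1 at -1.41. The null arrays were all higher (change 1.55 ± 0.316, adjusted p = 0.0096, and 0.217 with the slide block). Chac1, whose product degrades glutathione, stood at 1.05, 0.82 and 0.92 against 0.05 and -0.90, again without overlap (change 1.36 ± 0.260, adjusted p = 0.0073, and 0.0938 with the slide block). Sesn2, a leucine-sensing inhibitor of mTORC1, stood at 0.79, 1.27 and 1.23 against 0.06 and 0.29 (change 0.92, adjusted p = 0.00466). Sesn2 was as high on the Cyp1b1-null oil arrays, at 1.36 and 1.12.

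The remaining rises of the list covered its transcription factors and its enzymes. Cebpb was at the ceiling on all null arrays, with another probe at -0.05, and Atf5 (0.89) was off it. The alanyl-tRNA synthetase Aars rose by 0.80, the asparagine synthetase Asns by 0.49, the mitochondrial one-carbon enzymes Shmt2 and Mthfd2 by 0.69 and 0.59, and the amino acid transporter chain Slc3a2 by 0.44. Atf4 mRNA did not differ by the test (change -0.04 ± 0.117, adjusted p = 0.872), and the growth arrest factor Ddit3 (0.45, adjusted p = 0.119), the lipoprotein receptor Vldlr (0.74, 0.0528) and the serine synthesis enzyme Phgdh (0.61, 0.0503) were not called. Leaving out WT oil replicate 2 or 3 moved the change of Chac1 to 1.83 or 0.88.

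**Figure D3:**
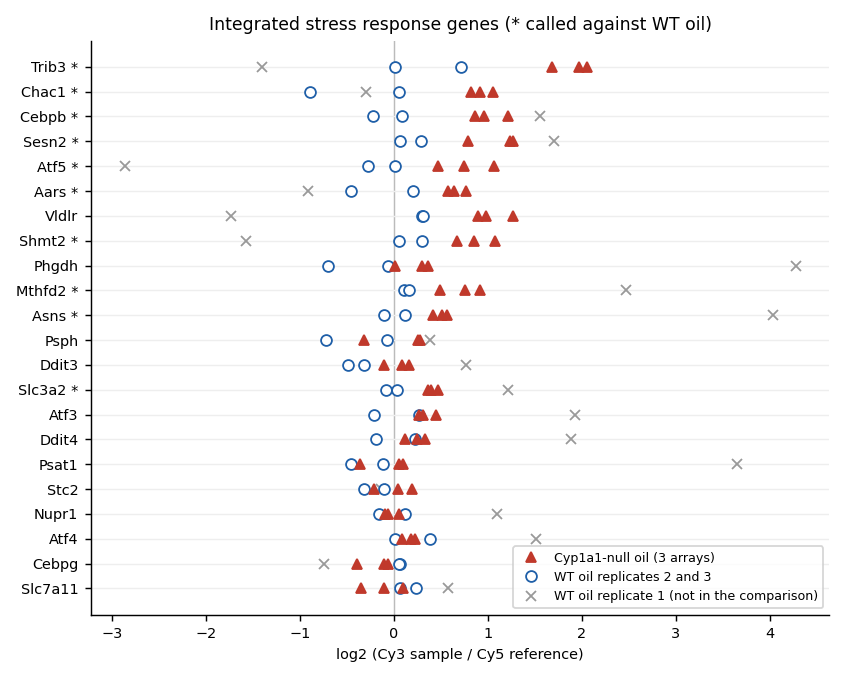
Log2 ratios of Cy3 sample to Cy5 reference (x axis, 1 mark per array) for the 22 integrated stress response genes; triangles are Cyp1a1-null oil, circles WT oil replicates 2 and 3, and crosses WT oil replicate 1, which was not in the comparison. The 10 called genes are starred, and WT oil replicate 1 runs from below -2 to above 4.

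Beyond the oil groups, Mthfd2 was the 1 member of the list that separated the 9 arrays lacking Cyp1a1 from the 14 carrying it. It ran from 0.40 to 0.92 on the 9 arrays and from -0.19 to 0.19 on the 14. WT oil replicate 1, which is not among the 14, read 2.47. The cysteinyl-tRNA synthetase Cars, which was not on the list, ran from 0.11 to 0.40 and from -0.49 to 0.10. Trib3 overlapped, at 0.67 to 2.22 against -0.46 to 1.24. In the comparison of double-null with Cyp1b1-null oil marrow 4 of the 22 list members were called higher and none lower, against 3.28% of all genes higher. They were Trib3 (1.80, adjusted p = 0.0176) and Slc3a2 (0.52, 0.0355), which were also called on WT marrow, and Atf4 (1.02, 0.00118) and Ddit3 (0.84, 0.0427), which were not. Off the list, the seryl-tRNA synthetase Sars (0.72, adjusted p = 0.00444) and Cars (0.53, 0.0333) were higher. Chac1 (0.52, adjusted p = 0.402) and Mthfd2 (0.49, 0.136) were not called there.

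Promoters of the list were read from the RefSeq table (GRCm38.p6, 250 bases before to 50 after each start), in which all 22 members were found. The core of the amino acid response element, TGATGNAA on either strand, was present in 8 of the 22 (Aars, Asns, Atf3, Chac1, Nupr1, Slc7a11, Trib3 and Vldlr; 36.4%) and in 3.97% of 32851 promoters. The CCAAT box was present in 16 (72.7%, against 37.4%), and the xenobiotic response element core, GCGTG, in 14 (63.6%, against 32.4%). These matches are descriptions of letters, and of the 8 genes with the amino acid response core 4 were called higher (Aars, Asns, Chac1 and Trib3) and 4 were not called (Atf3, Nupr1, Slc7a11 and Vldlr). The promoter of Chac1 is printed because it holds the clearest match among the largest rises; it covers the 250 bases before the start at chr2:119350992-119351241 on the + strand, with capitals on the amino acid response core (read on the opposite strand, at -193 to -186) and on 3 CCAAT boxes.
Chac1: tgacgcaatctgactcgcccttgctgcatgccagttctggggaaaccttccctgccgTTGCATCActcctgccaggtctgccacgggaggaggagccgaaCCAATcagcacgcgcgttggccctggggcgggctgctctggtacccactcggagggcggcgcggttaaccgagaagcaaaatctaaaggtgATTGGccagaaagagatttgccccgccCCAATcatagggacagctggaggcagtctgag

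Among called genes with official symbols and no overlap between the groups, the largest rise off the ceiling was that of Hspa1a. It encodes the inducible cytosolic HSP70 chaperone and lies at chr17:34969359-34972156. It stood at 3.35, 1.86 and 1.67 on the null arrays and at -0.10 and -0.11 on the WT arrays (change 2.39 ± 0.443, adjusted p = 0.00588, and 0.0938 with the slide block). WT oil replicate 1 read 2.95, within the range of the null arrays. For Hspa1a the 14 arrays carrying Cyp1a1 ran from -0.47 to 3.18. Its neighbour Hspa1b stood at 2.74, 1.55 and 1.35 against 0.24 and 0.13 (change 1.70 ± 0.386, adjusted p = 0.0163). These are near-identical copies, with promoters alike at 98.8% of 250 bases, so cross-hybridisation between their transcripts cannot be told apart from a rise of each. Of the 24 heat shock chaperones 4 were called higher and none lower (16.7%, against 3.25% of all genes higher), with a median change of 0.10. Off the ceiling Hspa1a and Hspa1b were the only 2 called, and the median change was 0.01.

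Among 23 inflammatory cytokines and NF-kB targets 3 were called higher and none lower (13%, against 3.25% of all genes higher, median change 0.12). Tnf, the macrophage cytokine, stood at 1.88, 1.69 and 1.79 on the null arrays and 0.35 and 0.39 on the WT arrays, tight within each group (change 1.42 ± 0.191, adjusted p = 0.000531, and 0.0785 with the slide block). WT oil replicate 1 read 2.90, and with it in the control the change was 0.58 (adjusted p = 0.434). Il6 was more scattered, at 0.31, 2.20 and 1.63 against 0.12 and 0.11 (change 1.27, adjusted p = 0.0468), and Il1a stood at 1.30, 0.50 and 0.73 against -0.15 and 0.18 (change 0.83, adjusted p = 0.0397). Tnf was also above both WT arrays on all 3 Cyp1a1-null benzo[a]pyrene arrays, at 1.30 to 1.42, and on the Cyp1b1-null oil arrays, at 0.98 and 0.59. Over the 14 arrays carrying Cyp1a1, Tnf ran from 0.15 to 2.90, Il6 from 0.11 to 2.47 and Il1a from -0.15 to 2.52. These ranges overlapped the null oil arrays. Of 24 immediate early genes 1 was called higher (4.17%, against 3.25% of all genes higher), Jund, at the ceiling.

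Other large rises off the ceiling fell in no single list. Lpl, lipoprotein lipase, had the tightest null arrays of these, at 0.77, 0.74 and 0.75 against -0.37 and -0.46 (change 1.17 ± 0.179, adjusted p = 0.00155, and 0.106 with the slide block). The immunoglobulin alpha constant gene Igha stood at 0.84, 1.61 and 1.59 against -0.08 and 0.22 (change 1.28). Changes were 1.30 for Ppp1r14c, 1.18 for the ubiquitin ligase gene Trim68 and 1.16 for Lgr4, the R-spondin receptor. Against Cyp1b1-null oil marrow Ppp1r14c (-1.67), Trim68 (-1.57), Lgr4 (-1.93) and Igha (-1.21, adjusted p = 0.0219) had the opposite sign. Other probes did not follow for Lpl (0.02), Ppp1r14c (-0.03, -0.10 and 0.26) and Lgr4 (-0.82, -0.40 and 0.31), and for Igha they gave 1.15 and -0.23. With Cy3 signal alone, Trim68 and Lgr4 turned to -0.18 and -1.01.

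The largest named fall was that of Ankrd37, a target of hypoxia-inducible factor, at -1.57, -1.74 and -1.89 on the null arrays and 0.35 and -0.42 on the WT arrays (change -1.70 ± 0.218, adjusted p = 0.000347, and 0.0333 with the slide block). Spp1, which encodes osteopontin, a matrix protein of bone and a cytokine of macrophages, stood at -1.66, -1.56 and -1.54 against 0.04 and -0.22 (change -1.50 ± 0.167, adjusted p = 0.000105, and 0.0209 with the slide block). Both genes kept their call in 16 of 17 alternatives and without any 1 array, and lost it with log ratios scaled between arrays. The 17 are not independent checks. A quantile normalization of intensity between arrays left all 1835 calls as they were, and the fit against 0 used no WT array. Low values were also seen elsewhere: the Cyp1b1-null oil arrays read -1.41 and -1.43 for Ankrd37 and -0.82 and -0.89 for Spp1, and the double-null oil array read -1.82 and -1.33. Treated WT arrays were low too, at -1.68, -1.13 and -1.38 for Spp1 after TCDD and -1.11 and -1.34 for Ankrd37 after benzo[a]pyrene. Against Cyp1b1-null oil marrow Spp1 was still lower in Cyp1a1-null marrow (-0.73, adjusted p = 0.00741), and Ankrd37 was not called (-0.31, 0.336). Among 20 osteopontin and bone cell genes Spp1 was the only fall and Acp5, the osteoclast acid phosphatase, the only rise (0.71, adjusted p = 0.0292). This is 10% called, against 7.62% of all genes tested.

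**Figure D4:**
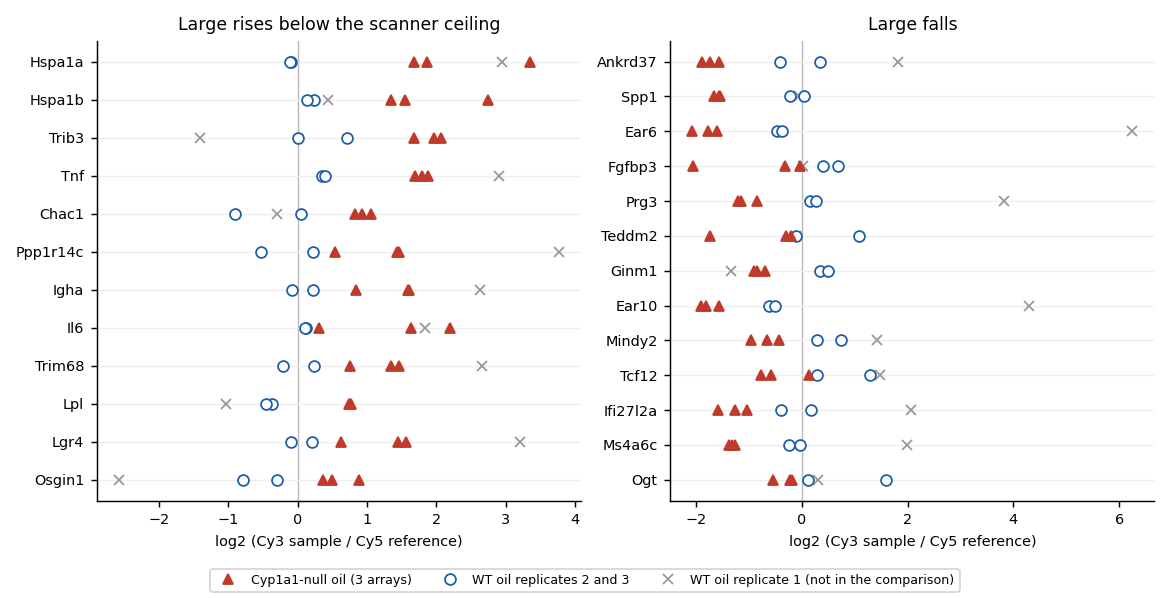
Log2 ratios of Cy3 sample to Cy5 reference (x axis, 1 mark per array) for 12 of the 14 largest rises off the ceiling and 13 of the 14 largest falls among called genes with official symbols and no overlap between the groups; triangles are Cyp1a1-null oil, circles WT oil replicates 2 and 3, crosses WT oil replicate 1. Hspa1a at 3.35 is the highest null value, and crosses often lie outside both groups.

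Beyond Ankrd37 and Spp1 a small set of falls off the ceiling outlasted the slide block. It held Ginm1, a membrane glycoprotein gene (-0.70, -0.85 and -0.90 against 0.35 and 0.49, change -1.24, adjusted p = 8.56e-05, and 0.0133 with the block), and Cd209d, a C-type lectin gene (-0.84, -0.64 and -0.77 against 0.41 and 0.33, change -1.12, and 0.018 with the block). It also held the interferon-inducible gene Ifi206 (-0.89, 0.018), the glucosamine phosphate deaminase gene Gnpda2 (-0.84, 0.0201), A430068E04Rik (-1.44, 0.0316), Prdx1 (-0.94, 0.0419) and the methionine salvage enzyme gene Adi1 (-0.86, 0.0497), each with its change and its adjusted p under the block. The remaining 3 were unnamed cDNA probes. Against Cyp1b1-null oil marrow Prdx1 was called (-0.63, adjusted p = 0.00579) and the other 6 were not (adjusted p from 0.106 to 0.983).

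The other large falls rested on less even values. Fgfbp3, a carrier of fibroblast growth factors, stood at -0.32, -0.03 and -2.05 on the null arrays and 0.41 and 0.69 on the WT arrays (change -1.35, adjusted p = 0.0339), and 1 null array set most of its size. Ms4a6c, a membrane protein gene of myeloid cells, was even, at -1.37, -1.26 and -1.32 against -0.04 and -0.24 (change -1.18, adjusted p = 0.00411), and the benzo[a]pyrene arrays read -1.34 on the slide of the null oil arrays and -0.64 and -0.46 on the other. Ogt, the O-GlcNAc transferase, stood at -0.19, -0.54 and -0.22 against 0.12 and 1.59 (change -1.18, adjusted p = 0.0454), with 1 WT array far above all others. Teddm2 (-1.24), the eosinophil ribonuclease gene Ear10 (-1.21, at the ceiling on all 3 null arrays) and the interferon-inducible gene Ifi27l2a (-1.19) were further falls covered by the naming rule. For Teddm2 Cy3 was well above background on 1 of the 3 null arrays, and leaving out 1 array moved its change between -1.84 and -0.64.

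Cell type lists were read next; in whole marrow fewer cells of a type and less RNA per cell cannot be told apart. Eosinophil, basophil and mast cell genes had 2 members higher and 5 lower among 20 (35.0%, against 7.62% of all genes called and 4.37% lower), with a median change of -0.08. The eosinophil granule genes Epx (-1.11), Prg3 (-1.28) and Ear6 (-1.39) and the mast cell protease gene Cpa3 (-0.93) fell, and the receptor gene Il5ra fell by 0.55; of these 5, Ear6 was at the ceiling on all 3 null arrays. Prg3 stood at -0.85, -1.15 and -1.20 against 0.16 and 0.27. The eotaxin receptor gene Ccr3 (0.84) and Prg2 went up, the latter at the ceiling. Prg3 read -1.09 on the Cyp1a1-null benzo[a]pyrene array that shared the slide of the null oil arrays and -0.07 and -0.09 on the other benzo[a]pyrene arrays, on another slide. With the slide block none of the named members was called (adjusted p from 0.169 to 0.252 for those given with a change).

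Dendritic cell genes had 5 of 18 members lower and none higher (27.8%, against 4.37% of all genes lower), with a median change of -0.38. Off the ceiling the median was -0.31, against -0.38 for pro-B and -0.30 for pan-B genes. Irf8, the transcription factor that dendritic cells and monocytes need, stood at -0.61, -0.70 and -0.78 against 0.02 and 0.13 (change -0.77 ± 0.180, adjusted p = 0.019), and its other probe gave 0.14. Siglech, a receptor of plasmacytoid dendritic cells, stood at -0.81, -0.16 and -0.03 against 0.41 and 0.72 (change -0.90), and Bst2 at -0.83, -1.05 and -1.07 against 0.07 and -0.11 (change -0.96). Zbtb46 (-0.84), a factor of classical dendritic cells, and Cd300c (-0.56) completed the set. With the slide block the adjusted p of the 5 ran from 0.217 to 0.321. Other probes of Zbtb46 gave -0.09, -0.11, 0.14 and -0.34, none of them above background on all arrays of the comparison. Against Cyp1b1-null oil marrow Bst2 was called lower (-0.86, adjusted p = 0.0137). Irf8 (0.11), Siglech (-0.16), Zbtb46 (-0.30) and Cd300c (-0.32) were not called there. For Bst2 the benzo[a]pyrene array on the slide of the null oil arrays read -1.12 and the other 2 read -0.30 and -0.31.

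The other lineages gave few calls off the ceiling, where 6.78% of all genes were called. Pan-B, stem and progenitor and MHC class II lists had none in either direction, pro-B genes 1 and neutrophil genes 5, all at the ceiling, and T and NK cell genes 1, the kinase Zap70 (-0.59, adjusted p = 0.0186). Megakaryocyte genes had 1 rise among 22 (4.55%), the integrin Itga2b (0.91), with a median change of 0.25. Monocyte and macrophage genes had 2 rises among 30 (6.67%), and of all genes tested 3.25% were higher. The 2 included the complement gene C1qb (0.87, adjusted p = 0.00466), which was lower against Cyp1b1-null oil marrow (-0.52, adjusted p = 0.0252). Erythroid genes had 6 rises, all at the ceiling, and 1 fall among 29 (24.1%, against 7.62% of all genes tested). Markers of tissue that can be carried over with marrow were not called: 0 of 15 liver genes and 0 of 17 skeletal muscle genes, with medians of 0.15 and 0.10. Among 12 adipocyte genes 2 were higher, Lpl and Retn (16.7%, against 3.25% of all genes higher).

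Ribosomal protein genes had the most calls of any list, 37 of 50 higher and 6 lower (86.0%, against 7.62% of all genes tested). All 37 rises were at the ceiling on every null array. Their changes ran from 0.47 to 1.59. Rpl41 stood at 0.88, 1.21 and 1.10 and Rpl12 at 0.86, 1.19 and 1.07 on the null arrays, against -0.48 and -0.56, and -0.52 and -0.53, on the WT arrays. The actin motor light chain gene Myl6, no ribosomal gene but likewise at the ceiling, read 0.88, 1.21 and 1.11, so that these genes at the ceiling had nearly the same 3 values. The largest called differences at the ceiling outside this list, for which no size is given, were those of Jund, the superoxide dismutase gene Sod1, the actin-binding protein gene Cotl1, the initiation factor gene Eif1, Erdr1, the ATP synthase inhibitor gene Atpif1 and the non-muscle myosin gene Myh9. Probes of the same genes below the ceiling did not follow for Sod1 (-0.29 and -0.10), Eif1 (-0.34), Atpif1 (-0.66) and the ribosomal gene Rpl34 (-0.85), and gave 0.41 for Erdr1 and 0.33 for Myh9. Of the 5 ribosomal protein genes off the ceiling 3 were called, all lower: Rpl4 (-0.61), Rpsa (-0.67, its other probe 0.05) and Rps15 (-1.07). On the Cy3 signal alone Rpl41 and Rpl12 turned to -0.11 and -0.25, and in the double-null comparison 30 of the 50 were lower and 3 higher. The direction of this list is therefore not given.

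The same division ran through other lists of abundant transcripts. Of 44 mitochondrial respiratory chain subunit genes 8 were called higher and 6 lower (31.8%, against 7.62% of all genes tested). Off the ceiling 0 of 31 were higher and 6 lower, among them the complex I subunits Ndufa2 (-0.98) and Ndufs8 (-0.96). Of all genes off the ceiling 4.41% were lower. G2 and mitosis genes had 2 rises at the ceiling and 4 falls off it among 34 (17.6%), including the spindle checkpoint gene Mad2l1 (-0.54) and the ubiquitin-conjugating enzyme gene Ube2c (-0.47). S phase genes had 3 higher and 2 lower among 37 (13.5%, against 7.62% of all genes tested). Of 28 p53 targets 10.7% were called, 2 higher, Sesn2 and the apoptosis inducer Bbc3 (0.65), and 1 lower, the polymerase Polk (-0.54). The other probe of Polk gave 0.36. The median change of the list was -0.21. Of 28 interferon-stimulated genes 10.7% were called too: Mx1 (0.40) was higher and Isg15 (-0.84) and Bst2 were lower.

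**Figure D5:**
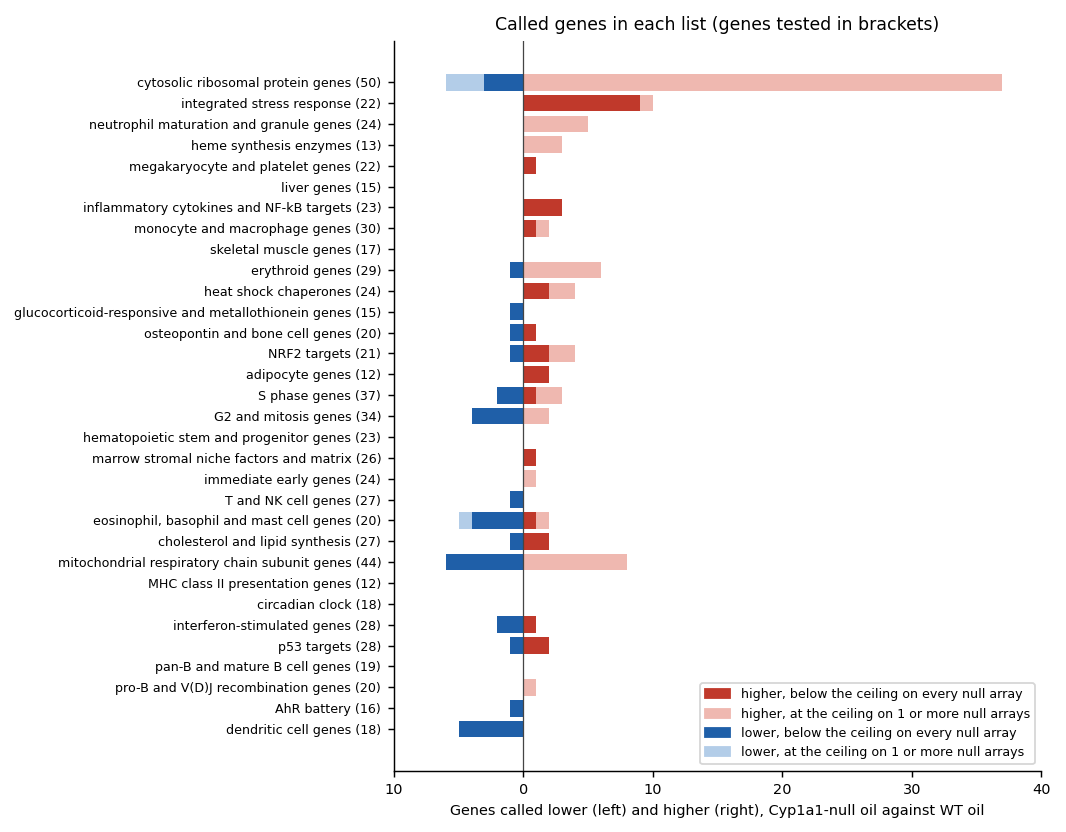
Bars count the genes of each list called lower (left of 0) and higher (right of 0) in Cyp1a1-null oil against WT oil marrow, with the number tested in brackets; pale parts were at the scanner ceiling on 1 or more null arrays. The 37 higher ribosomal protein genes are all pale, and 9 of the 10 higher integrated stress response genes are dark.

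Cyp1a1-null oil marrow was also set against Cyp1b1-null oil marrow, a control that shares no WT array with the first comparison but does share the 3 null arrays. It called 5281 genes (21.9%), 1949 higher (8.09%) and 3332 lower (13.8%), and the Cyp1b1-null oil arrays lay on another slide than the null oil arrays. With slide as a random block this comparison called 93 genes, and with slide as a fixed term 0. The single-gene calls below are given without either term. Trib3 (1.48, adjusted p = 0.00542), Tnf (1.00, 0.00309), Hspa1a (1.27, 0.049), Mthfd2 (0.58, 0.0101) and Slc3a2 (0.47, 0.00715) were higher there too. The transcript ENSMUST00000050829 (-1.62, adjusted p = 0.000825) and the probe of 4930520O04Rik (-3.04, 0.000138) were again lower. Sesn2 (-0.15, adjusted p = 0.573), Il6 (-0.04, 0.949) and Lpl (-0.06, 0.855) were not called. Of the 22 integrated stress response genes 6 were higher and 1 lower. Among the 5 largest rises were the cytokine signalling inhibitor Socs1 (1.59), the tubulin gene Tubb4b (1.41) and the poly(ADP-ribose) polymerase Parp1 (1.52), and among the falls the kinase Dyrk1b (-3.13) and the RNA polymerase subunit Polr2a (-3.00). The other probes of Dyrk1b had no such values in the comparison with WT, at -0.09 and 0.26. Dyrk1b read 3.18 to 3.99 and Polr2a 3.08 to 3.91 on the 4 arrays of the slide that held the Cyp1b1-null oil arrays, 2 Cyp1a1-null benzo[a]pyrene arrays included.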

How the data were processed

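Whole-marrow RNA (Cy3) and a WT oil reference pool (Cy5) were hybridised on 2-colour Agilent 44K mouse arrays. Per the file headers, the deposited values are mean spot and median background intensity, not yet normalized, written by the Feature Extraction software. A comparison file the authors deposited gives log2 differences between groups, made with limma per the submitters' processing notes; WT oil replicate 1 is among its controls, its median is 0.04, and for background correction and centring the sources used here give nothing. These values correlated at r = 0.78 across probes with those computed here from 3 null and 2 WT arrays, and had a slope of 1.3 on them. With WT oil replicate 1 among the controls here too (3 against 3 arrays), the correlation was 0.433.

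From the intensities, background was corrected with normexp (offset 50) on all 45018 features, 1639 control features were given weight 0 in the loess within each array and then left out, outlier spots were removed, and spots of a probe were averaged. Ratios run as Cy3 over Cy5, from the dyes in the labels. Of 41174 probes 26977 were named by accession, 5495 by symbol and 991 by synonym through RefSeq (GRCm38.p6), and 7711 kept the file's name. Each gene was represented by its brightest probe, and 24097 of 27633 genes were tested, those with Cy3 well above background on at least 3 of 23 arrays. A limma model with a mean for each group was fitted to these 23 arrays (13 residual degrees of freedom), with Benjamini-Hochberg adjustment over all genes tested and a threshold of 0.05. All p-values are two-sided and come from this model. Arrays carry no read depth, and their small number limits the precision.

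Genes were named by rule: Cyp1a1, Cyp1b1, Cyp1a2, Ahr, Ahrr, Tiparp and Nqo1; the 14 largest rises and falls among called genes with official symbols, every null array beyond both WT arrays and Cy3 above background throughout the higher group; per list, at most 4 members ranked by adjusted p, with any called member that opposed the majority; and 5 of each direction against Cyp1b1-null marrow. Genes outside the rule (calls kept under the slide block, genes separated by genotype, other list members) were named after their values were seen. Some genes covered by the rule are not reported here. The genes described and the gene lists were chosen with earlier results of these data known. Same-numbered null and WT arrays had deviations that correlated at 0.125 and -0.0149. With 2 WT arrays the deviations of one mirror those of the other, so this cannot decide whether the numbers pair the arrays. They were not treated as pairs.

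Alternatives covered the control arrays, background, normalization, filter, probe summary, Cy3 alone, slide, software version, replicate number, prior, arrays in the fit and leaving out arrays. The ceiling filter, the comparison of double-null with Cyp1b1-null marrow, the 25 Mb window and the test of the difference between both readings were added after seeing the data. The fit was tested on simulated data. Tools were R 4.3.3, limma 3.58.1, statmod 1.5.0, the data.table package (1.17.8), Python 3.11.15 and matplotlib 3.10.9.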

Additional observations from a re-analysis of the deposited data

Results flagged for a closer look

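The effect of losing Cyp1a1 was measured on WT marrow (Cyp1a1-null minus WT oil) and on Cyp1b1-null marrow (double-null minus Cyp1b1-null oil), and the difference between both was tested as an interaction in the limma fit. Of 110 genes named in the text, 44 differed at an adjusted p under 0.05. The 11 of these at the scanner ceiling on all 3 null arrays have no measured size there and are not given. The double-null oil group was a single array whose spread was taken from the other groups, and the groups lay on different slides, so slide and genotype cannot be told apart. Each value below is the change on WT marrow minus the change on Cyp1b1-null marrow, on the log2 scale.

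Of the 33 differences off the ceiling 9 were also called with slide as a random block. Off the ceiling here refers to the Cyp1a1-null oil arrays only. For these genes it was not examined on the arrays of the other reading. There the Cyp1b1-null oil arrays had 348 and 309 Cy5 saturation flags, and the double-null oil array had 303 Cy3 flags. These were 4.35 for Lgr4, 4.04 for Ppp1r14c, 3.89 for Trim68, 1.82 for Lpl, -1.83 for Ginm1, -1.64 for Gnpda2, -2.28 for A430068E04Rik, -1.86 for the ribosomal protein gene Rpsa and -1.47 for the mitosis gene Mad2l1. For Lgr4, Ppp1r14c and Trim68 the change was 1.16, 1.30 and 1.18 on WT marrow and -3.20, -2.74 and -2.71 on Cyp1b1-null marrow. On the arrays carrying Cyp1a1 their highest values were 3.32, 3.01 and 3.02, with medians of 0.48, 0.39 and 0.47. All of these genes also read lower in Cyp1a1-null oil marrow than in Cyp1b1-null oil marrow. The latter is the group subtracted in the second reading, and its arrays shared 1 slide. The part of that slide in these differences was not tested. For Lgr4, Ppp1r14c, Lpl and Rpsa other probes of the gene did not follow the one used on WT marrow.

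The other 24 lost their call with the slide block, with adjusted p from 0.0579 to 0.343. Among cell type genes these were -2.42 for Prg3, -1.16 for Cpa3, -0.99 for Irf8, -1.53 for Ms4a6c, -0.78 for Zap70, -1.24 for Cd209d, 1.94 for Igha and 1.41 for C1qb. Interferon genes differed by -1.84 (Isg15) and -0.83 (Ifi206). Spp1 differed by -1.03, Ankrd37 by -1.30 and Adi1 by -1.08. Near Cyp1a1 the values were -0.83 for Rcn2, -1.18 for Imp3, -0.93 for 1600029O15Rik and 0.68 for Tbc1d21. They were -1.01 for Rpl4, -1.94 for Rps15, -1.39 for Ndufa2 and -1.18 for Ube2c. Atf4 (-1.06), Nqo1 (-1.19) and Cyp1b1 (-1.21) differed although none of the 3 was called on WT marrow, and Cyp1b1 is the gene named as deleted in the Cyp1b1-null and double-null groups, where its probe was not low.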

How the results depend on the processing

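Cyp1a1-null against WT oil gave 1835 calls, against Cyp1b1-null oil 5281, and double-null against Cyp1b1-null oil 1520. In that order the calls were 860, 1212 and 238 with WT oil replicate 1 added, 1, 37 and 34 with log ratios scaled between arrays (the 1 being 4930520O04Rik), 46, 93 and 201 with slide as a random block, and 3402, 8 and 3215 with software version as a fixed term. Without background subtraction the first and last gave 325 and 769, with Cy3 alone the others gave 485 and 42, and with version as a random block the first pair gave 61 and 32. Processed signals left 201 in the first and fitting the mean of the null arrays against 0 gave 5114; only the arrays of the groups compared gave 236 and 7936. Slide as a fixed term could not be estimated against WT and gave 0 against Cyp1b1-null oil in limma (2829 at an unadjusted p under 0.05). The higher share against WT was 42.6%, but 29.0% with WT oil replicate 1, 58.2% without background subtraction, 76.6% with processed signals and 80.1% with version as a fixed term.

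Leaving out 1 array gave 660 to 3080 calls against WT, with 3080 without WT oil replicate 2, 687 without WT oil replicate 3, and 774 and 660 without null replicates 2 and 3. It gave 865 to 3867 against Cyp1b1-null oil, with 1127 and 865 without either Cyp1b1-null array, and 605 to 640 in the last comparison. With the replicate number as a block the first pair gave 1713 and 4549, and whether the numbers pair the arrays is not known.

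Over the alternatives, 1565 values of the 110 named genes kept direction and side of the threshold, 790 were no longer called, 15 became called and 31 changed sign; 523 list medians moved by less than the spread and 181 by more. With WT oil replicate 1 the signs changed for Adi1 (0.11), Asns (-0.86), Ccr3 (-0.10), Cotl1 (-0.12), Lrrc1 (-0.09), Mthfd2 (-0.19), Ppp1r14c (-0.01), Prdx1 (0.00), Pstpip1 (-0.16) and Zap70 (0.12). With Cy3 alone they changed for 1700041C23Rik (-2.03), Bst2 (0.04), Cd300c (0.41), Eif1 (-0.13), Lgr4 (-1.01), Myl6 (-0.16), Rpl12 (-0.25), Rpl4 (0.52), Rpl41 (-0.11), Tbc1d21 (-0.05) and Trim68 (-0.18). With version as a fixed term they changed for 1600029O15Rik (0.04), Myh9 (-0.16), Ndufa2 (0.10), Rps15 (0.01), Tubb4b (-0.04) and Zbtb46 (0.04). Cyp1a2 changed with the mean of its probes (-0.42), Parp1 (0.49) and Ube2c (0.01) against 0, and 1700041C23Rik with processed signals (-0.09). The cause of these moves was not tested. The test of the difference between both readings was run with the slide block and not under the other alternatives.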
